A study of Mus musculus with 10 samples.

Results

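S100 proteins are small calcium-binding proteins of vertebrates, and transcripts of 10 of their genes (S100a3, S100a4, S100a6, S100a7a, S100a8, S100a9, S100a10, S100a11, S100a13 and S100a14) were followed here in wounded skin of diabetic mice. The members were taken by symbol from a table of 55421 genes, and all 10 were found and passed the filter on low counts, as did 18509 genes in all. Tissue came from ulcers cut surgically in db/db mice, which lack a working leptin receptor and become obese and diabetic. One group received saline (5 libraries), the other saline and Fu Huang ointment, which is applied to the skin (5 libraries), each for 7 days. Every library analysed here was therefore from a diabetic, wounded animal. Nothing in the labels says that each library came from its own mouse, so the p-values reflect spread among libraries that could be technical. The comparison asks what the ointment changed in the ulcer.

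S100 proteins carry a pair of EF-hand motifs, which are calcium sites in most of them. Most work as dimers that bind a target, often once calcium is bound. S100a8 and S100a9 pair into calprotectin, which fills the cytosol of neutrophils, chelates zinc and manganese away from microbes and acts as a danger signal outside the cell. S100a3 is a cysteine-rich protein of the hair cuticle, S100a4 is a protein of fibroblasts and other mobile cells, S100a10 is the partner of annexin A2, and S100a7a is the mouse relative of human psoriasin, an antimicrobial protein of keratinocytes. The genes sit together on mouse chromosome 3, next to the genes of the cornified envelope.

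Library totals ran from 58145331 to 62664018 counts with saline and from 47807353 to 62896034 counts with ointment. The labelled tissue was checked against its markers: all 8 markers of basal keratinocytes and all 10 of fibroblasts were above 0 in every library, with sums of 10598 to 19508 CPM and 20211 to 60888 CPM over the 10 libraries (CPM, counts per 1000000 scaled by the TMM method). Across all genes, edgeR's quasi-likelihood test called 310 (128 higher and 182 lower with ointment, 1.67% of those tested) at an adjusted p of 0.05, and the groups did not overlap in 6.54% of genes.

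In GENCODE release M21 on GRCm38, 8 members lay within 181.3 kb of chromosome 3, in the order S100a13, S100a14, S100a3, S100a4, S100a6, S100a7a, S100a8 and S100a9, from position 90514435 to 90695721. S100a11 and S100a10 lay farther along, between 93520488 and 93564643. All are protein coding and all but S100a9 are on the plus strand. A model named Gm42674 runs through the end of S100a3 and into S100a4 and shares 144 exon bases with the first and 302 with the second, so fragments from there could have been counted for either, and both values are uncertain to that extent. A small nuclear RNA gene on the other strand, Gm23464, shares 117 bases with a noncoding S100a3 transcript, and the library kit is not stated to keep strand.

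The stretch before the start of a gene is where many regulators bind. RefSeq promoters on GRCm38.p6 were at hand for 8 of the 10 members (not for S100a10 and S100a14), and 3 are shown as the 250 bases before the start, written 5′ to 3′ on the gene's strand. S100a3 is shown because it was the member that changed most, and S100a8 and S100a9 because their transcripts put the 10 libraries in the same order. The windows are chr3:90599964-90600213 on the plus strand, chr3:90668821-90669070 on the plus strand and chr3:90695722-90695971 on the minus strand. Of the 4 RefSeq starts of S100a3, the one used lies 1 base from the start of the GENCODE transcript S100a3-201. The RefSeq start of S100a8 lies 93 bases inside the GENCODE model.
S100a3: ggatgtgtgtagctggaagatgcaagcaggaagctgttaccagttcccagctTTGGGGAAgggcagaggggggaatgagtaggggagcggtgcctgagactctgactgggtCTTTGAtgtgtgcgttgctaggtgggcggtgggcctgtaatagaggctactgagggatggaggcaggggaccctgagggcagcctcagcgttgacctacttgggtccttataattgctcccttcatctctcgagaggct
S100a8: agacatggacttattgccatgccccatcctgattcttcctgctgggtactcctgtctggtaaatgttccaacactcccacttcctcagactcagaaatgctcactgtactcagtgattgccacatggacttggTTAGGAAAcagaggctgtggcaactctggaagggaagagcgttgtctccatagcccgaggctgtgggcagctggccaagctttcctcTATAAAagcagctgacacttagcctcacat
S100a9: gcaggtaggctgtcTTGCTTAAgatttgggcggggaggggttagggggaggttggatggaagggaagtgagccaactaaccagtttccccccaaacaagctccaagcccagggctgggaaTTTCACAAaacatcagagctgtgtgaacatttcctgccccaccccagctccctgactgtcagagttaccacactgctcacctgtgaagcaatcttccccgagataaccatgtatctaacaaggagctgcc
Capitals mark matches, on either strand, to the 5 motifs searched: a TATA box (TATAAA), AP-1 (TGANTCA), C/EBP (TTNNGNAA), NF-kB (GGGA and CC with any 4 bases between) and LEF/TCF (CTTTGA). No matches overlapped in these windows.

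The S100a8 window held TATAAA from 30 to 25 bases before the start and 1 C/EBP match from 117 to 110 bases before it. The S100a9 window held 2 C/EBP matches, the nearer one from 130 to 123 bases before the start, and no TATAAA. The S100a3 window held 1 C/EBP match (198 to 191 bases before) and 1 LEF/TCF match (139 to 134 bases before). Among 32851 promoter windows of the same length, 12.4% held the TATA box, 36.8% the C/EBP letters and 13.8% the LEF/TCF letters, so each match was of a kind many promoters have. S100a4 also held TATAAA, from 31 to 26 bases before its start. Windows of other S100a3 starts, not shown, held TATAAA (52 to 47 bases before) and another C/EBP match (116 to 109 bases before). AP-1 letters, present in 6.75% of windows, occurred among the members in S100a11, which held TGAGTCA at 2 places. S100a11 also held the LEF/TCF letters, from 172 to 167 bases before its start. NF-kB letters, in 17.6% of windows, occurred in S100a4, S100a7a and S100a11. The windows of S100a6 and S100a13 held none of the 5.

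Calprotectin transcripts were the most abundant of the family. Per kb of exon, mean levels in the saline ulcers were in the order S100a9 (1550 ± 831 CPM per kb, SD, n = 5), S100a8 (869 ± 355), S100a11 (838 ± 370.2), S100a6 (435 ± 39.4), S100a4 (293 ± 77.8), S100a10 (218 ± 112), S100a14 (206 ± 21.7), S100a13 (73.6 ± 9.14), S100a7a (2.86 ± 2.07) and S100a3 (1.44 ± 1.13). Among neighbours in this order the libraries' ranges were apart for S100a6 and S100a4, for S100a14 and S100a13 and for S100a13 and S100a7a, and overlapped for the other 6 pairs. The order of means was the same in the ointment ulcers. With the length of the first listed transcript in place of all exons, S100a9, S100a8, S100a11 and S100a6 stayed in the first 4 places in both groups, while S100a3, whose exons include distant noncoding ones, stood above S100a7a in the saline ulcers (11.4 against 3.07 CPM per kb).

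**Figure D1:**
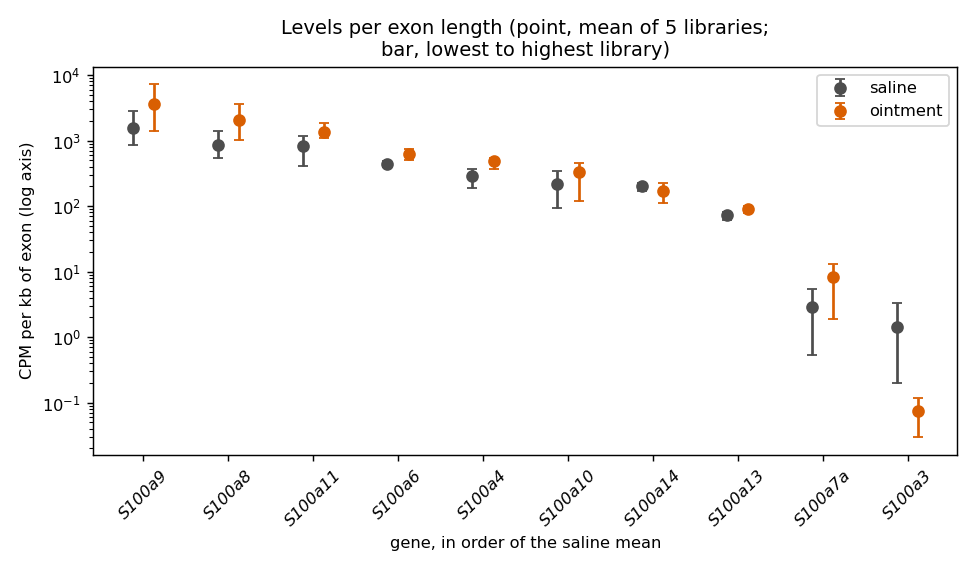
Levels of the 10 S100 transcripts in CPM per kb of exon (log axis) with the genes in order of the saline mean; points are means of 5 libraries and bars run from the lowest to the highest library. S100a9 leads in both groups, and S100a7a and S100a3 lie far below the other 8.

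Of the 10 members, S100a3 fell with ointment (0.983% of all genes tested fell) and 0 rose by edgeR (0.692% of all genes rose; 1.67% were called in either direction). At an unadjusted p of 0.05, 6 members were higher and 1 lower (17.1% of all genes passed it). DESeq2 called 3 members higher (S100a4, S100a6 and S100a8; 4.72% of all genes) and S100a3 lower (4.34% of all genes). limma voom called no member (0.816% of all genes higher and 1.11% lower). Positive fold changes were found for 8 members (49.7% of all genes), and the median log2 change of all 10 was 0.66 against -0.00 over all genes. The groups did not overlap for 3 members, S100a3 lower (3.44% of all genes) and S100a4 and S100a6 higher with ointment (3.11%; 6.54% in either direction). In bulk tissue, fewer cells of a type and less RNA per cell cannot be told apart, and this holds for each value that follows.

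**Figure D2:**
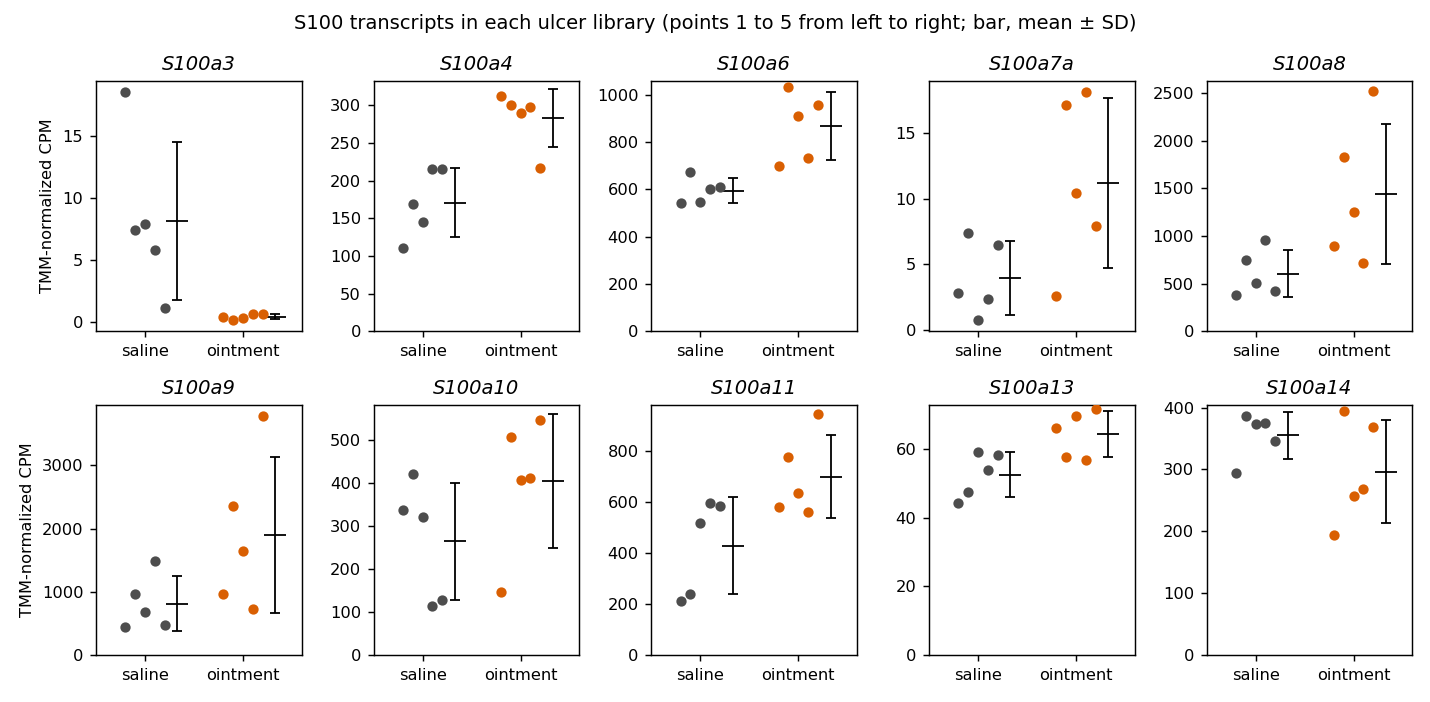
TMM-normalized CPM (y axis) of each S100 member in the 5 saline (grey) and 5 ointment (orange) libraries, points 1 to 5 from left to right, with mean ± SD beside them. The groups are apart for S100a3, S100a4 and S100a6 and overlap for the other 7.

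S100a3, which builds the hair cuticle and is modified there by peptidylarginine deiminases, fell to low levels in the ointment ulcers. Its levels were 18.5, 7.40, 7.90, 5.79 and 1.14 CPM in saline libraries 1 to 5 and 0.362, 0.168, 0.281, 0.663 and 0.606 CPM in ointment libraries 1 to 5. Every ointment library lay below every saline library, and saline 1 was far above the other saline libraries while saline 5 was the lowest of them. Few counts stood behind the low values, 9 to 37 per ointment library against 69 to 1113 per saline library. The means were 8.15 ± 6.38 and 0.416 ± 0.212 CPM (SD, n = 5), a 19.5-fold difference (log2 change -4.29, SE 0.71, 95% interval -5.86 to -2.71, edgeR adjusted p = 0.0202). The call was lost without ointment 1 (adjusted p = 0.0592), ointment 3 (0.0646) or ointment 5 (0.052), with limma voom (0.0974) and with 4 libraries in each group once saline 1 and ointment 5 were removed (0.0855). The log2 change stayed between -4.57 and -3.74 in all of the fits run.

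Markers of the hair shaft and cuticle were lower in the same libraries. Their sum over 12 genes was 65.7, 40.2, 38.4, 30.7 and 15.2 CPM in saline libraries 1 to 5 and 8.65, 8.73, 5.76, 9.71 and 10.01 CPM in ointment libraries 1 to 5. As for S100a3, saline 1 was the highest and saline 5 the lowest of the saline libraries. All 12 had negative fold changes (median -2.05) and 3 fell: the transcription factor genes Hoxc13 (log2 change -2.28, edgeR adjusted p = 0.00698) and Lef1 (-1.97, 0.0143) and the keratin gene Krt84 (-1.77, 0.0349). DESeq2 called 7 lower and voom 3, and 8 were lower at an unadjusted p of 0.05. Krt84 kept its edgeR call on removal of saline 1 alone among the 10 libraries. Of the 15 listed genes in the table, 7 were at 0 in some library, Krt31, Krt35 and Krt81 among them. Their part in the S100a3 result was not tested.

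S100a8 and S100a9, the calprotectin subunits, were higher on average with ointment but varied widely, and neither passed by edgeR. S100a8 was 378, 747, 510, 962 and 419 CPM in saline libraries 1 to 5. With ointment it was 898, 1833, 1257, 714 and 2521 CPM in libraries 1 to 5. Ointment 1 and 4 lay below saline 4, so the groups overlapped, and ointment 5 was the highest of all. The means were 603 ± 246 and 1444 ± 738 CPM (2.39-fold, log2 change 1.26, SE 0.39, 95% interval 0.40 to 2.12, edgeR adjusted p = 0.13 and 0.023 by DESeq2).

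S100a9 was 443, 962, 679, 1491 and 470.2 CPM in saline libraries 1 to 5 and 966, 2349, 1651, 734 and 3788 CPM in ointment libraries 1 to 5. The high and low libraries were those of S100a8: saline 4 led its group and ointment 5 and 2 led theirs. The means were 809 ± 434 and 1898 ± 1231 CPM (2.35-fold, log2 change 1.23, SE 0.49, 95% interval 0.13 to 2.33, edgeR adjusted p = 0.236). Without ointment 5 the estimates were 0.96 for S100a8 (adjusted p = 0.263) and 0.82 for S100a9 (0.476).

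The balance of the subunits moved little. The ratio of S100a9 to S100a8 counts was 1.17, 1.29, 1.33, 1.55 and 1.12 in saline libraries 1 to 5 and 1.08, 1.28, 1.31, 1.03 and 1.5 in ointment libraries 1 to 5, with means of 1.29 ± 0.167 and 1.24 ± 0.192. It was highest in each group where both transcripts were highest, saline 4 and ointment 5. Together the pair made up 31.3 to 55.5% of the counts of the 10 members in saline libraries and 38.1 to 67.0% with ointment. The 10 members together held 0.246 to 0.459% of all counts with saline and 0.379 to 0.865% with ointment.

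Neutrophil markers followed the same libraries. Their sum over 13 genes was 93.4, 417, 296, 690 and 287 CPM in saline libraries 1 to 5 and 863, 1780, 1121, 600 and 2837 CPM in ointment libraries 1 to 5. Within each group the libraries stood in the same order for this sum and for S100a8. Of the 13, 12 had positive fold changes (median 1.88) and 1 rose, the gelatinase gene Mmp9, which macrophages and keratinocytes also make (4.42-fold, edgeR adjusted p = 0.0143). The collagenase gene Mmp8 (log2 change 2.79, adjusted p = 0.0635), the lactoferrin gene Ltf (1.45, 0.113) and the chemokine receptor gene Cxcr2 (2.13, 0.132) did not pass by edgeR, and did by DESeq2 (0.00016, 0.0139 and 0.0106). In all, DESeq2 called 8 of the 13 higher and voom 1, and 9 were higher at an unadjusted p of 0.05. The granule genes Elane, Ngp and Camp were at 0 in some library. The neutrophil sum did not change in proportion to S100a8. In saline 1 it was 93.4 CPM beside 378 CPM of S100a8, and in ointment 5 it was 2837 CPM beside 2521 CPM. Wound keratinocyte markers summed to 8036 to 16816 CPM with saline and 8629 to 19147 CPM with ointment. The part of either set of markers in the S100a8 and S100a9 values was not tested.

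**Figure D3:**
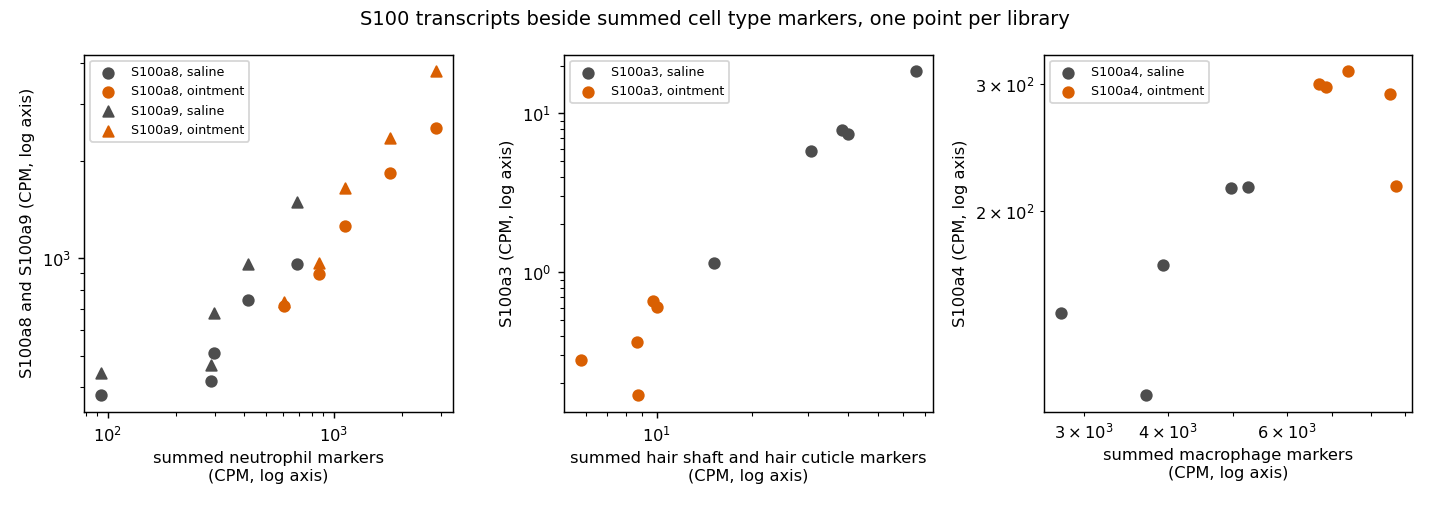
S100 transcripts (CPM, log y axis) against the summed CPM of cell type markers (log x axis), one point per library and gene, grey for saline and orange for ointment. From left to right: S100a8 and S100a9 against neutrophil markers, S100a3 against hair shaft and cuticle markers, and S100a4 against macrophage markers. Ointment 5 is highest for neutrophil markers and for both subunits, and all 5 ointment libraries are at the low end for S100a3. For macrophage markers ointment 5 is again highest, but for S100a4 it is the lowest ointment library.

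S100a4 and S100a6 had smaller and steadier differences. S100a4, which binds nonmuscle myosin and is known as a marker of fibroblasts and of some macrophages, was 111, 168, 144, 215.7 and 215 CPM in saline libraries 1 to 5 and 313, 300.2, 290.3, 297 and 216.7 CPM in ointment libraries 1 to 5. The groups did not overlap, but only just: ointment 5 lay next to saline 4 and 5. The means were 171 ± 45.4 and 283 ± 38.2 CPM (1.66-fold, log2 change 0.73, SE 0.19, 95% interval 0.30 to 1.16, edgeR adjusted p = 0.0908 and 0.0104 by DESeq2).

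S100a6, or calcyclin, is a protein of proliferating cells, fibroblasts and epithelia. Its levels were 541, 673, 548, 604 and 610.4 CPM with saline and 700.2, 1034, 908, 734 and 957 CPM with ointment, in libraries 1 to 5. The lowest ointment library was above the highest saline library. The means were 595 ± 53.9 and 867 ± 144 CPM (1.46-fold, log2 change 0.54, SE 0.13, 95% interval 0.25 to 0.83, edgeR adjusted p = 0.0701 and 0.00371 by DESeq2). Both genes missed the edgeR threshold whichever library was removed, and S100a6 came nearest, with adjusted p from 0.0501 to 0.155.

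Markers of macrophages and fibroblasts, cells that make these proteins, differed in how they moved. Summed over 11 genes, macrophage markers were 2771 to 5260 CPM with saline and 6704 to 8705 CPM with ointment; all 11 were positive (median 0.78) and Adgre1, Cd68 and Trem2 rose (edgeR adjusted p = 0.00649, 0.0125 and 0.0325), Trem2 not without saline 1, 3 or 4 or ointment 1, 3 or 5 (adjusted p up to 0.0838). DESeq2 called 6 of the macrophage markers higher. Fibroblast markers summed to 37355 to 56271 CPM with saline and 20211 to 60888 CPM with ointment, and of 10 none was called by edgeR, DESeq2 or voom (2 higher and 1 lower at an unadjusted p of 0.05, median -0.23). Ointment 5 had the highest macrophage sum (8705 CPM) but the lowest S100a4 of the ointment libraries (216.7 CPM). Its fibroblast sum, 20211 CPM, was the lowest of all libraries. No marker of either list was at 0 in any library. Their part in the S100a4 and S100a6 values was not tested.

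S100a10 and S100a11, which bind annexins at membranes, showed libraries at separate levels inside a group. S100a10, the light chain of the annexin A2 complex that docks plasminogen at the cell surface, was 338, 422, 320, 115 and 128 CPM in saline libraries 1 to 5 and 147, 506, 407, 411 and 547 CPM in ointment libraries 1 to 5. Saline 4, saline 5 and ointment 1 stood at 115 to 147 CPM and the other 7 at 320 CPM or more, a gap of 2.18-fold that did not follow the groups. A gap of at least 2-fold with libraries of both groups on each side was found in 5.22% of the 12115 genes at 5 CPM or more and above 0 in all libraries; its source was not tested. The S100a10 means, which include the low libraries, were 264 ± 136 and 404 ± 156 CPM (log2 change 0.61, SE 0.44, 95% interval -0.36 to 1.58, edgeR adjusted p = 0.549). Above the gap, saline libraries 1 to 3 were at 320 to 422 CPM and ointment libraries 2 to 5 at 407 to 547 CPM. These ranges overlapped, and because the split was made on the same values it gives no comparison of the groups.

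S100a11, a partner of annexin A1 that slows growth of keratinocytes, was 209, 238, 515, 594 and 584 CPM in saline libraries 1 to 5 and 578, 776, 634, 561 and 943 CPM in ointment libraries 1 to 5. Saline 1 and 2 stood 2.16-fold or more below every other library, while saline 3 to 5 reached the level of the lower ointment libraries. The means were 428 ± 189 and 698 ± 161 CPM (log2 change 0.71, SE 0.32, 95% interval -0.00 to 1.42, edgeR adjusted p = 0.293).

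Of the keratinocyte members, S100a7a and S100a14, neither passed by edgeR, DESeq2 or voom, and their estimates had opposite signs. S100a7a, the psoriasin relative, was 2.76, 7.36, 0.744, 2.33 and 6.48 CPM with saline and 2.58, 17.1, 10.4, 18.1 and 7.87 CPM with ointment. Ointment 1 lay among the saline libraries and the other 4 above them all (means 3.93 ± 2.84 and 11.2 ± 6.50 CPM, log2 change 1.51, SE 0.66, 95% interval 0.05 to 2.97, edgeR adjusted p = 0.273). As for S100a10, a gap crossed the groups. Saline 1, 3 and 4 and ointment 1 were at 2.76 CPM or less and the rest at 6.48 CPM or more (2.34-fold). S100a14, a protein of epithelia, was 294, 387, 374, 375 and 346 CPM with saline and 194, 395, 257, 268 and 368 CPM with ointment. Ointment 2 was the highest library of all and ointment 1 the lowest (means 355 ± 37.5 and 296 ± 83.2 CPM, log2 change -0.26, SE 0.19, 95% interval -0.68 to 0.16, adjusted p = 0.557).

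S100a13, which takes part in the release of Fgf1 and Il1a from cells by a route without a signal peptide, was the steadiest member with ointment, with a coefficient of variation of 10.5%, and the third steadiest with saline (12.4%). In libraries 1 to 5 it was 44.2, 47.6, 59.1, 54.0 and 58.3 CPM with saline, against 66.2, 57.7, 69.7, 57.0 and 71.6 CPM with ointment. Ointment 2 and 4 lay at the level of saline 3 and 5 (means 52.6 ± 6.53 and 64.5 ± 6.77 CPM, log2 change 0.29, SE 0.12, 95% interval 0.03 to 0.55, edgeR adjusted p = 0.236).

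**Figure D4:**
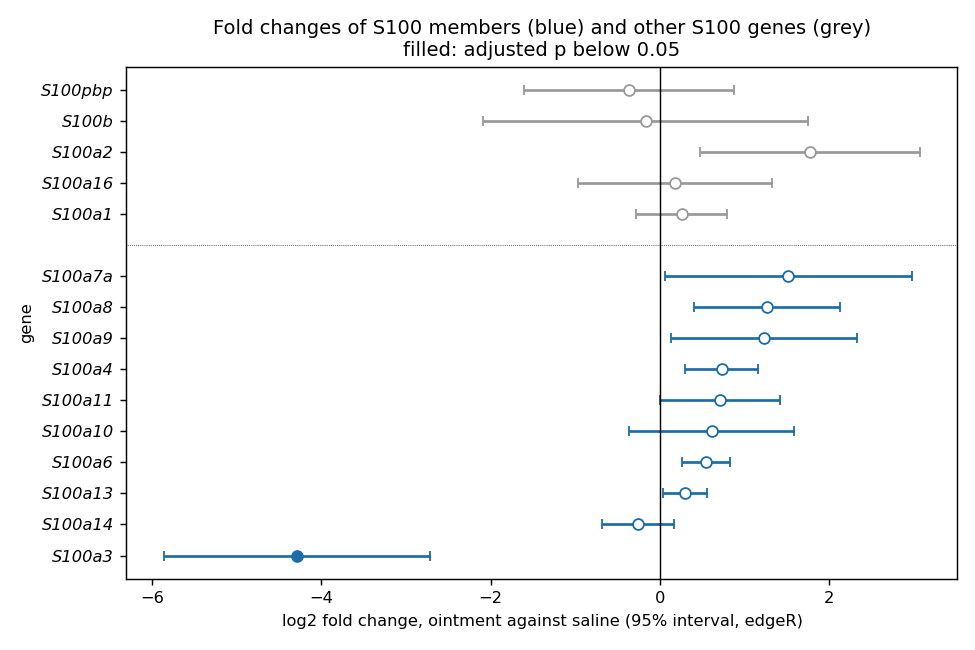
Log2 fold change of ointment against saline (x axis) with its 95% interval for each S100 member (blue) and for the other S100 genes tested (grey). S100a3, at -4.29, is the single filled point (adjusted p below 0.05); the intervals of S100a10, S100a11 and S100a14 include 0.

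Keratinocyte markers moved in part. Of 11 suprabasal markers Krt2 rose from 0.257 ± 0.224 to 47.5 ± 24.3 CPM (edgeR adjusted p = 0.00273) and the desmosomal cadherin gene Dsc1 and Krtdap fell (median -0.85, 8 not called), Krtdap not without saline 2, 3 or 4 or ointment 3 or 5 (adjusted p up to 0.0654). DESeq2 called 2 of them higher and 5 lower. Their sum was 4265 to 10358 CPM with saline and 1632 to 3622 CPM with ointment. Of 8 wound keratinocyte markers, the interleukin 36 gene Il1f6 fell (log2 change -1.69, edgeR adjusted p = 0.0165) and 7 did not pass (median 0.01), Slpi at 1.98 (0.0817; 0.00198 by DESeq2) among them. In S100a14 and S100a7a, the part of these markers was not tested.

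The remaining S100 genes gave no call. Of 8 in the table from a list of 11, 5 were tested and 0 passed by edgeR, DESeq2 or voom (S100a2 was higher at an unadjusted p of 0.05). S100a1, a calcium sensor of muscle, was 35.3 ± 11.8 and 42.1 ± 5.66 CPM (log2 change 0.25, edgeR adjusted p = 0.676). S100a16 was 179 ± 114 and 203 ± 138 CPM (0.18, 0.915), with saline 1, ointment 2 and ointment 5 at 351 to 381 CPM and the other 7 at 90.0 to 151 CPM, again without regard to group. S100b, a marker of Schwann cells and melanocytes, was 1.53 ± 1.65 and 1.36 ± 1.36 CPM (-0.17, 0.954), and S100a2 was 0.118 ± 0.0548 and 0.408 ± 0.253 CPM (1.77, 0.153). S100pbp, which encodes a binding protein of S100P and no S100 protein, was 19.1 ± 11.8 and 14.8 ± 7.96 CPM (-0.37, 0.817). S100a5, S100g and S100z had at most 10 counts in any library and were not tested.

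Fused-type S100 genes encode large proteins of the epidermis and hair follicle that begin with an S100 domain. All 7 tested had negative fold changes (median -1.32) and 0 were called by edgeR or voom, while DESeq2 called 2 lower and 2 were lower at an unadjusted p of 0.05. Filaggrin (Flg) was 34.3 ± 15.5 CPM with saline against 4.09 ± 5.48 CPM (log2 change -3.07, SE 1.13, edgeR adjusted p = 0.199, 0.0267 by DESeq2), without overlap between the groups. Cornulin (Crnn) was 6.10 ± 6.44 and 0.431 ± 0.548 CPM (-3.81, SE 1.13, edgeR adjusted p = 0.121, 0.00322 by DESeq2). Trichohyalin (Tchh), a protein of the inner root sheath, was 55.2 ± 56.8 and 18.2 ± 11.5 CPM (-1.60, adjusted p = 0.36). These estimates leaned on single libraries: Tchh was at -0.83 without saline 1, Flg at -4.23 without ointment 3, and Crnn at -2.94 without saline 1 and -4.95 without ointment 4.

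Receptors that sense S100 proteins outside the cell were all at positive fold changes (9 of 9, median 0.62), and 1 rose by edgeR and voom, 2 by DESeq2 and 3 at an unadjusted p of 0.05. The gene called by edgeR was the scavenger and lipid receptor gene Cd36, which binds the calprotectin complex with fatty acids (214 ± 47.7 to 780 ± 124 CPM, 3.65-fold, SE 0.17 on the log2 scale, edgeR adjusted p = 0.00205). All 5 ointment libraries, at 667 to 986 CPM, were above the saline libraries, at 169 to 291 CPM. Ager, the receptor RAGE, was 2.96 ± 0.356 and 4.54 ± 1.11 CPM with no overlap between the groups (log2 change 0.62, adjusted p = 0.162 by edgeR and 0.0274 by DESeq2). Emb (0.90, adjusted p = 0.257) and Bsg (0.27, 0.41), cell surface receptors of S100a9, did not pass.

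Annexins and the plasmin system, the partners of S100a10 and S100a11, gave no call by edgeR or voom among 10 tested (9 positive, median 0.41), while DESeq2 called 2 higher and 2 were higher at an unadjusted p of 0.05. The urokinase gene Plau was 98.8 ± 8.39 and 142 ± 27.2 CPM (log2 change 0.52, edgeR adjusted p = 0.0966), and Anxa1 was 891 ± 165 and 1368 ± 338 CPM (0.62, 0.132).

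Inside cells, calprotectin delivers arachidonic acid to the phagocyte NADPH oxidase, and 3 genes of that oxidase rose among the 13 intracellular partners tested (10 positive, median 0.71, 10 not called). Ncf1 rose from 35.6 ± 8.53 to 103 ± 32.6 CPM (2.88-fold, edgeR adjusted p = 0.0166), Cyba from 61.8 ± 10.4 to 111 ± 12.6 CPM (1.79-fold, 0.0198) and the GTPase gene Rac2 from 62.3 ± 10.3 to 152 ± 57.6 CPM (2.44-fold, 0.0341). Ncf1 passed on removal of any 1 library. Cyba did not pass without saline 4 (0.0508) or ointment 3 (0.052), and Rac2 passed on removal of ointment 4 alone (up to 0.0819 otherwise). Fgf1, the growth factor released with S100a13, was 10.1 ± 1.48 and 16.5 ± 2.46 CPM, without overlap, and lay just outside the threshold (log2 change 0.71, adjusted p = 0.0528 by edgeR and 0.000229 by DESeq2). DESeq2 called 5 of the 13 partners higher and 1 lower.

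The pattern of each member over the 10 libraries was set beside that of all other genes at 5 CPM or more, as a description that includes the difference between the groups. The Pearson r of log2 CPM was highest for S100a8 with S100a9 (0.986), with Itgam, an integrin chain of neutrophils and macrophages (0.983), and with the leukocyte receptor gene Pirb (0.974). S100a9 was next most like Irak2 (0.971) and Jaml (0.965), genes expressed in leukocytes. S100a3 was most like the sodium channel gene Scnn1b (0.974), Crim1 (0.971) and the epithelial cadherin gene Cdh1 (0.968). The nearest genes were Cisd2 for S100a4 (0.956), Sh3bp2 for S100a6 (0.960), Zdhhc20 for S100a7a (0.911), Fzd5 for S100a10 (0.946), Pitpnc1 for S100a13 (0.950) and Shmt2 for S100a14 (0.962). Each was picked as the highest of all genes compared.

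Among the members themselves, over the same 10 libraries, S100a8 also ran with S100a6 (r = 0.893) and S100a11 with S100a13 (0.853). S100a3 ran opposite to S100a4 (-0.913) and S100a6 (-0.832), the members whose groups did not overlap in the other direction. S100a10 and S100a14 followed the rest least, with r between -0.173 and 0.561 and between -0.396 and 0.342.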

How the data were processed

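The authors deposited a table of whole numbers for 10 libraries that were treated as estimated counts, not normalized. RNA was purified on RNeasy columns and sequenced from SMARTer mRNA libraries, per the labels' protocols. The submitters' processing notes name GRCm38 (mm10); no source used here gives the aligner or counter. The values 4, 8, 12 and 16 occurred 9202, 4812, 3028 and 2104 times, more often than their neighbours, so the values were not taken as reads, and a fit to values divided by 4 was an alternative.

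Groups were compared with edgeR 4.0.16 (R 4.3.3): filterByExpr (count at least 10, total at least 15), TMM scaling, robust quasi-likelihood F-test with group as the only term, two-sided, Benjamini-Hochberg adjustment over all genes tested. Fold changes are ointment against saline. Alternatives were other scalings and filters, DESeq2 1.42.0, limma 3.58.1 voom with sample weights, the replicate number as a block, 4 libraries per group and each library left out. On simulated counts for 18509 genes, 17% of 2-fold and 74% of 4-fold changes were recovered, and 3 of 94 calls were false. Of the table's IDs, 55154 were found in GENCODE M21. The members, gene lists, motifs and alternatives were chosen with earlier results of these data known. Named genes were the members, the other S100 genes, up to 4 genes of smallest p and any called ones per list, and up to 3 genes most like each member; S100a5, S100g, S100z, Krt35, Krt81, Elane, Ngp and Camp were named after their values were seen, for low or absent counts. Results for 2 genes that this rule would name are not reported here.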

Additional observations from a re-analysis of the deposited data

Results flagged for a closer look

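Among 34 sets of 5 libraries checked (each S100 gene tested, the sum of the 10 members and the S100a9 to S100a8 ratio, in each group), 2 had a library far from the others by Dixon's test, and chance alone flags about 1 in 20. S100a4 in ointment 5 was 216.7 CPM, below the 290.3 CPM of the next ointment library. S100a16 in saline 1 was 381 CPM, above the 151 CPM of the next saline library and at the level of ointment 2 and 5.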

How the results depend on the processing

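No member changed direction under any of the alternatives, and of 219 values of the members recomputed under them 210 kept their side of the threshold, 6 lost a call (all of S100a3) and 3 gained one (S100a4, S100a6 and S100a8, with DESeq2). The count of members called higher, 0, became 3 with DESeq2. The count called lower, 1, became 0 with limma voom, with 4 libraries per group, with the replicate number as a block and with a filter at 5 CPM, which removed S100a3, and it was 0 to 1 with a library left out. The count of all genes called, 310, became 1677 with DESeq2, 59 with 4 libraries per group and 0 with the replicate block, and ran from 102 to 422 with a library left out; the cause was not tested. Same-numbered libraries did not deviate together (correlations -0.08 to 0.06), but such correlations cannot show whether the numbers stand for a block. No label states one. With a library left out, the log2 change of S100a16 ran from -0.12 (without ointment 2; -0.11 without ointment 5) to 0.64 and that of S100b from -0.90 to 0.70 (positive without saline 5, or with 0.07 and 0.09 without ointment 3 and 5). Without ointment 4, Sprr1b (-0.083 to 3.81 over these fits) and the muscle gene Actn3 (-0.16 to 0.51) changed sign. Depth limits S100a3 with ointment, at 9 to 37 counts a library, and S100a2, at 4 to 36.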

Other observations

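S100b marks Schwann cells and melanocytes, and some other markers of these cells, mostly pigment genes, fell with ointment. Of 10 tested, 9 had negative log2 changes (median -1.49), 6 were not called by edgeR and 4 fell: the pigment genes Dct (14.8 ± 4.56 to 3.60 ± 1.15 CPM, SD, n = 5, adjusted p = 0.0165), Tyrp1 (14.4 ± 8.42 to 2.59 ± 0.751 CPM, 0.0285) and Tyr (4.58 ± 2.77 to 0.846 ± 0.340 CPM, 0.0442), and Sox10 (5.85 ± 1.57 to 2.15 ± 0.797 CPM, 0.0401). Dct passed on removal of any 1 library. Tyrp1 passed without saline 3, saline 5 or ointment 4, Sox10 without ointment 4 and Tyr without saline 3, and none of these on removal of any other library. DESeq2 called 7 lower. The sum of the 10 was 101 to 235 CPM with saline and 68.2 to 127 CPM with ointment and overlapped: ointment 4, at 127 CPM, lay above saline 2, 4 and 5. S100b itself, at 0.265 to 4.31 CPM in the 10 libraries, gave no call.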
